A study of Mus musculus with 12 samples.

Results

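Melanin synthesis was followed through 10 genes of the pigment cell: the enzymes Tyr, Tyrp1 and Dct, the melanosome proteins Pmel and Mlana, the transporters Slc45a2 and Oca2, the receptor Mc1r, and the transcription factors Mitf and Sox10. They were chosen by symbol, and each of the 10 matched 1 row among the 55453 genes of the count table. RNA-Seq had been performed on whole skin of 12 female mice of the strain labelled C57/BL6, in 4 groups of 3: PBS-injected WT mice (WT PBS), bleomycin-injected WT mice (WT BLM), and mice lacking Thy-1 that had received PBS (KO PBS) or bleomycin (KO BLM). Values are listed in the order of the mouse numbers, 159, 160 and 161 for WT PBS, 145, 146 and 147 for WT BLM, 136, 137 and 139 for KO PBS and 141, 143 and 144 for KO BLM. The methods give an age of 8 to 12 weeks for the KO mice, injections under the skin of the back at 10 mg/kg of bleomycin per day for at most 14 days, and the labels give 21 days, the day of harvest. Thy-1 is a surface protein of fibroblasts and T cells, and its deletion was not limited to a chosen cell type. The question was how bleomycin, which scars the injected skin, and the loss of Thy-1 altered the RNA of the skin.

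Melanin is made in melanosomes, organelles of the melanocyte. Tyrosinase, the product of Tyr, oxidizes tyrosine, and the products of Dct and Tyrp1 act on later steps toward black pigment. In the hairy back skin of the mouse, pigment cells lie mainly in the hair follicles, and they make pigment while the hair grows and stop when growth ends. The nonagouti coat of C57BL mice is black because the agouti signal, an antagonist of Mc1r, is all but lacking.

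Promoter sequence is shown here because Mitf, the main regulator of pigment genes, binds the letters CATGTG. The part of Mitf in the values of the other genes was not tested. RefSeq windows (GRCm38.p6) from 250 bases before to 50 bases after each start site were found for Tyr, Tyrp1, Dct, Oca2, Mc1r and Mitf. CATGTG was present on either strand in 5 of these 6 genes, all but Mitf with its 3 windows, and in 14.2% of all 32851 windows. Below are 30 bases around each match, 5′ to 3′ on the strand of the gene, with CATGTG or its reverse complement CACATG in capitals.
Tyr, chr7:87493516-87493545, minus strand: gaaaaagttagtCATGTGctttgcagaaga
Tyrp1, chr4:80834155-80834184, plus strand: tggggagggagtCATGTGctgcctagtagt
Dct, chr14:118052379-118052408, minus strand: tgcacttagggtCATGTGctaacaaagagg
Dct, chr14:118052461-118052490, minus strand: gcttggctgggaCACATGagcccaataaag
Oca2, chr7:56239561-56239590, plus strand: ttgagcttgctaCACATGgctggaattttc
Mc1r, chr8:123407008-123407037, plus strand: acacatccctggCACATGcccatcatgtgg
Mc1r, chr8:123407019-123407048, plus strand: gcacatgcccatCATGTGgccaccctcagg
The first capital lay 21 bases before the start site in Tyr, 46 in Tyrp1, 150 and 232 in Dct, 186 in Oca2, and 62 and 51 in Mc1r, whose windows overlap. For Mc1r alone, the bases checked after the start site were not found in a GENCODE transcript. Its distances therefore hold for the RefSeq start only. The Tyrp1 stretch overlaps an annotated exon. The windows of Tyr, Tyrp1 and Dct shared 10 bases, gtCATGTGct, a run chosen after the windows were aligned and found in 61 of the 32851 windows (0.186%). A match of letters does not show binding, and no binding was measured here.

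Among 56 genes of a wider pigment list with a window, 7 held CATGTG. The other letters searched, each on either strand, were CACGTG, found in 0 of the 6 genes and 7.15% of all windows, TCATGTG, which holds CATGTG within it, found in 4 of the 6 and 3.77%, and ACAAAG, the core of many Sox sites, found in 3 of the 6 and 18.7%. Full stretches of 250 bases before the start sites of Tyr (chr7:87493513-87493762) and Dct (chr14:118052247-118052496), both on the minus strand, give the surroundings of these letters, again with CATGTG and CACATG in capitals.
Tyr: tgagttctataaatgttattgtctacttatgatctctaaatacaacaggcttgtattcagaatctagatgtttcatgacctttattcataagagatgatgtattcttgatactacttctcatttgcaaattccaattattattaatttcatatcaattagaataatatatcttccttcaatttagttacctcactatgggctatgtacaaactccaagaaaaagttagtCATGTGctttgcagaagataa
Dct: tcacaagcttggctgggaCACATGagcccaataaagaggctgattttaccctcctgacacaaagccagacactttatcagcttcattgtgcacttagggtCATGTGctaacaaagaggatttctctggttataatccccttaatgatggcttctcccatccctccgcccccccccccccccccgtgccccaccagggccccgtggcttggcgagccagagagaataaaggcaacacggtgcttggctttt
Neither stretch overlaps an annotated exon. The single match of Tyr lies close to the start, while both matches of Dct lie farther from it.

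Expression is given as CPM, the counts scaled to a common library total after TMM normalization. The libraries held 26473700 to 38890450 counts (median 31494965), and all 10 genes passed the filter on low counts, which left 18311 genes. Differences were tested with edgeR's quasi-likelihood test in a model of the 4 groups, and p-values were adjusted by the Benjamini-Hochberg method over these 18311 genes, with 0.05 as the threshold. The labels do not name litters or batches, so the p-values measure the spread between these mice. With 3 mice per group, exact two-sided permutation p-values cannot go below 0.1, so that test was not used. Thy1, the gene deleted in the KO mice, was counted in all 12 mice, at 45.6 to 128 CPM in KO mice and 104 to 416 CPM in WT mice, and counts per gene do not show which part of it the reads came from.

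Per kilobase of merged annotated exons, Pmel was highest of the 10 genes in WT PBS skin, with 174 ± 19.7 CPM per kb (SD, n = 3). It was followed by Tyrp1 with 113 ± 17.5, Dct with 82.5 ± 10.7, Mlana with 67.1 ± 8.63 and Tyr with 15.1 ± 2.88 CPM per kb. The remaining 5 lay between 6.33 ± 1.18 CPM per kb for Mc1r and 11.3 ± 0.295 for Mitf, and neighbours in the order Mitf, Slc45a2, Oca2, Sox10, Mc1r differed by less than the larger of their SDs. These lengths join all annotated transcripts of a gene, so the order may differ for the transcripts in use. Without division by length, Dct was highest, at 486 ± 63.3 CPM against 399 ± 45.1 CPM for Pmel.

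In WT skin, 9 of the 10 genes were lower after bleomycin, with Sox10 the exception. Among all genes tested 14.1% were lower and 34% were called in either direction. The 8 genes of the pigment machinery and the receptor (Tyr, Tyrp1, Dct, Pmel, Mlana, Slc45a2, Oca2 and Mc1r) fell with log2 fold changes from -3.63 to -5.94, that is 12.4-fold for Dct and 61.5-fold for Oca2 as the extremes. Mitf fell 3.6-fold. For all 9 genes the WT groups did not overlap, with WT BLM lower, as for 28.7% of all genes. The median log2 fold change of the 10 genes was -4.34, against 0.018 for all genes tested. In a bulk sample, fewer melanocytes and less RNA per melanocyte cannot be told apart.

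Tyr (chromosome 7, 87424771 to 87493512 in GRCm38), which encodes the rate-limiting enzyme of melanin synthesis, was at 105, 88.1 and 129 CPM in the WT PBS mice. It was at 2.35, 4.14 and 3.54 CPM in WT BLM, at 44.3, 3.06 and 1.82 CPM in KO PBS and at 50.4, 18.0 and 16.7 CPM in KO BLM mice. All WT PBS mice lay above the other 9, and in the KO PBS group the first mouse, replicate 136, lay far above the other two. Between the WT groups Tyr fell by 5.0 on the log2 scale (SE 1.12, edgeR adjusted p = 0.0115).

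Tyrp1 (chromosome 4, 80834123 to 80851719), whose product acts late in the making of black melanin, was at 320, 270 and 369 CPM in WT PBS and at 10.9, 18.2 and 21.2 CPM in WT BLM mice. In the KO mice it was at 142, 15.6 and 13.1 CPM with PBS and at 168, 68.4 and 65.1 CPM with bleomycin. The WT groups did not overlap, and the KO groups did only through KO PBS replicate 136. Tyrp1 fell by 4.25 on the log2 scale in WT mice (SE 0.89, edgeR adjusted p = 0.00943).

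Dct (chromosome 14, 118012790 to 118052244) encodes dopachrome tautomerase, the enzyme between the other two, and is also a marker of melanoblasts. Its levels were 484, 424 and 551 CPM in WT PBS, 21.7, 39.6 and 56.3 CPM in WT BLM, 251, 46.0 and 41.8 CPM in KO PBS and 266, 180 and 152 CPM in KO BLM mice. The order of the mice was much as for Tyr, but Dct kept more of its level in the low mice. It fell by 3.63 on the log2 scale in WT mice (SE 0.69, edgeR adjusted p = 0.00693).

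Pmel (chromosome 10, 128704195 to 128720238) encodes the protein of the fibrils on which melanin is laid down. It was at 395, 357 and 446 CPM in WT PBS mice and at 11.6, 18.9 and 30.9 CPM in WT BLM mice. With KO skin the values were 167, 15.7 and 15.7 CPM after PBS and 190, 102 and 98.2 CPM after bleomycin. Again KO PBS replicate 136 lay between the WT PBS mice and the 2 other KO PBS mice, and the fall in WT mice was 4.28 on the log2 scale (SE 0.91, edgeR adjusted p = 0.00962). Exons of Pmel share 34 bases with Cdk2 and 105 bases with Dgka on the other strand, and the use of strand in counting is not given in the sources used here.

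Mlana (chromosome 19, 29697824 to 29708634), a small melanosome protein that binds the Pmel protein, was at 75.1, 60.4 and 77.1 CPM in WT PBS, 1.45, 4.14 and 3.87 CPM in WT BLM, 34.5, 1.77 and 4.02 CPM in KO PBS and 41.6, 20.5 and 19.0 CPM in KO BLM mice. All KO BLM mice lay above every WT BLM mouse. Mlana fell by 4.48 on the log2 scale in WT mice (SE 0.99, edgeR adjusted p = 0.0109).

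The transporters Slc45a2 and Oca2, both needed to set the pH of the melanosome, were less abundant and dropped most. Slc45a2 (chromosome 15, 11000721 to 11029233) was at 32.0, 25.6 and 35.8 CPM in WT PBS, 0.313, 0.685 and 1.21 CPM in WT BLM, 8.97, 1.0 and 0.745 CPM in KO PBS and 15.7, 5.4 and 5.41 CPM in KO BLM mice, and its lowest count in a mouse was 8. It fell by 5.38 on the log2 scale in WT mice (SE 1.01, edgeR adjusted p = 0.00689). The 2 lower KO PBS mice overlapped the WT BLM mice, and the KO BLM mice lay clear of both.

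Oca2 (chromosome 7, 56239760 to 56536518) was at 34.1, 28.8 and 42.2 CPM in WT PBS, 0.274, 0.652 and 0.755 CPM in WT BLM, 9.84, 0.143 and 0 CPM in KO PBS and 19.0, 3.47 and 4.77 CPM in KO BLM mice. KO PBS replicate 139 had 0 counts and replicate 137 had 5, so these mice were near the floor of 3 counts. Oca2 fell by 5.94 on the log2 scale in WT mice (SE 1.65, edgeR adjusted p = 0.0233), with the widest error of the 10 genes. Without any single mouse of the WT groups its adjusted p rose to between 0.0513 and 0.0694.

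Mc1r (chromosome 8, 123407107 to 123410744), the melanocortin receptor that turns on black pigment, was at 25.5, 18.1 and 25.6 CPM in WT PBS, 0.587, 0.946 and 1.74 CPM in WT BLM, 4.69, 0.629 and 0.477 CPM in KO PBS and 11.7, 4.4 and 5.51 CPM in KO BLM mice. KO PBS replicate 136 overlapped the KO BLM mice by a small margin. Mc1r fell by 4.39 on the log2 scale in WT mice (SE 0.86, edgeR adjusted p = 0.0076). Of its exon bases 17.9% overlap a gene model on the other strand, Gm38092.

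Mitf (chromosome 6, 97807052 to 98021349), the basic helix-loop-helix factor that switches on the enzymes, had the tightest WT PBS values of the 10 genes, at 68.3, 72.0 and 69.9 CPM. It was at 17.3, 24.9 and 16.3 CPM in WT BLM, 64.0, 29 and 38.6 CPM in KO PBS and 43.3, 19.3 and 20.6 CPM in KO BLM mice. In KO PBS replicates 137 and 139 the enzymes were as low as in WT BLM mice, yet Mitf was above every WT BLM mouse. It fell by 1.85 on the log2 scale in WT mice (SE 0.36, edgeR adjusted p = 0.00737). Mitf is also transcribed in other cells from other promoters, and counts per gene do not separate its isoforms.

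Sox10 (chromosome 15, 79154908 to 79165240), a factor of the neural crest shared by melanocytes and Schwann cells, took another course. It was at 27.8, 18.9 and 19.0 CPM in WT PBS, 24.1, 29.4 and 19.3 CPM in WT BLM, 14.8, 16.1 and 14.1 CPM in KO PBS and 19.8, 23.3 and 28.2 CPM in KO BLM mice. The WT groups overlapped, with a log2 fold change of 0.15 (SE 0.21, edgeR adjusted p = 0.592), while the 3 KO PBS mice were the lowest of the 12. Markers of Schwann cells were present in every group: the summed CPM of 15 such genes was 634 to 692 in WT PBS, 598 to 1004 in WT BLM, 672 to 961 in KO PBS and 587 to 762 in KO BLM mice, and 3 of the 15 were higher and 1 lower in WT BLM, where 19.8% and 14.1% of all genes were. Their part in the Sox10 values was not tested.

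**Figure D1:**
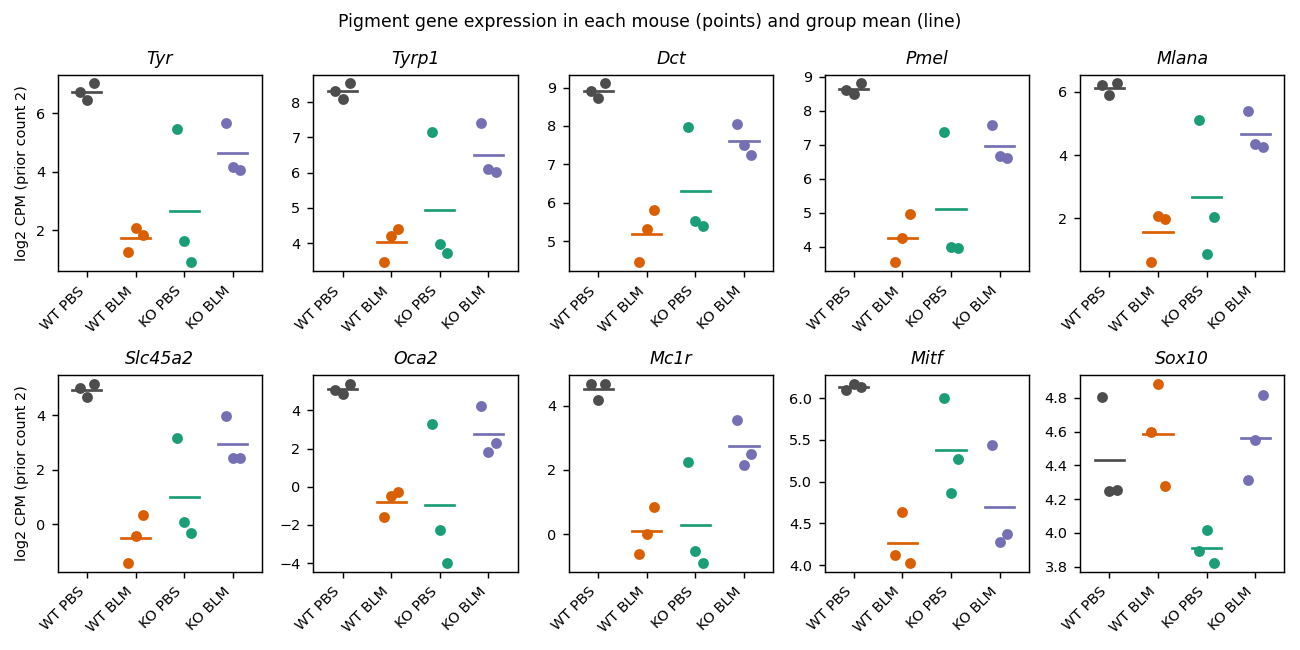
Expression of the 10 pigment genes in each mouse (points) with the group mean (line), as log2 CPM with a prior count of 2, each panel on its own axis. For 9 of the genes the 3 WT PBS mice lie above all other mice, and in KO PBS the uppermost of the 3 points is replicate 136, while Sox10 is lowest in the KO PBS mice.

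The comparison of KO BLM with KO PBS asked how bleomycin acted without Thy-1. None of the 10 genes passed the threshold (0 of 10, against 0.306% of all genes), and 2 had an unadjusted p under 0.05 in edgeR's test, as 20% of all genes did. These were Mc1r, with a log2 fold change of 1.91 (SE 0.77, edgeR adjusted p = 0.211), and Sox10, with 0.66 (SE 0.21, edgeR adjusted p = 0.153). For the other 7 genes of the machinery the log2 fold changes ran from 0.79 for Tyr to 1.46 for Oca2, and for Mitf the value was -0.66 (SE 0.35, edgeR adjusted p = 0.309). Sox10 was the only member without overlap between the KO groups, with KO BLM higher, as for 10.8% of all genes.

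This outcome turned on KO PBS replicate 136. Leaving it out, 8 of the 10 genes were higher in KO BLM than in the remaining 2 KO PBS mice, as were 9.25% of all genes, by log2 fold changes from 2.18 for Dct (edgeR adjusted p = 0.0121) to 6.89 for Oca2 (edgeR adjusted p = 0.0106), the latter with almost no counts in the KO PBS mice left. Tyr was then higher by 3.54 (edgeR adjusted p = 0.00954) and Mc1r by 3.69 (edgeR adjusted p = 0.00954). With KO BLM replicate 141 also left out, the 8 genes were still higher, with 13.5% of all genes, and Mitf had a log2 fold change of -0.76 (edgeR adjusted p = 0.0321), with 8.73% of all genes lower. Mitf and the 8 genes thus differed in opposite directions between these 4 mice. Both replicates were set aside with their earlier values known.

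With PBS alone, KO mice were compared with WT mice in skin that had been injected without bleomycin and harvested at 21 days. All 10 genes had a lower level in each KO PBS mouse than in any WT PBS mouse, where 10.3% of all genes tested were lower without overlap. The log2 differences ran from -0.55 for Sox10 (SE 0.21) and -0.68 for Mitf (SE 0.35) to -3.58 for Mc1r (SE 0.82). None passed the threshold in edgeR's test (0 of 10, adjusted p from 0.194 to 0.281, against 0.0655% of all genes called), and 9 had an unadjusted p under 0.05, as 20.4% of all genes did. Without KO PBS replicate 136, 9 of the 10 genes were lower in KO PBS, as were 18.8% of all genes, among them Tyr with a log2 difference of -5.46 (edgeR adjusted p = 0.000909) and Mitf with -1.05 (edgeR adjusted p = 0.0353), and Sox10 was at -0.54 (edgeR adjusted p = 0.0999). Here and in the comparisons below, replicate 136 was set aside with its high pigment values known. The adjusted p-values of these fits describe the mice left and are not independent support. DESeq2 called 6 of the 10 genes lower with all 3 KO PBS mice in, and 1.44% of all genes, but gave no adjusted p for Mlana.

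After bleomycin, the 8 genes of the machinery and the receptor had a higher level in each KO BLM mouse than in any WT BLM mouse, where 14.7% of all genes were higher without overlap. The log2 differences ran from 2.34 for Dct (SE 0.65) to 4.0 for Oca2 (SE 1.54), and those of Mitf and Sox10 were 0.51 (SE 0.35) and -0.03 (SE 0.21). None passed the threshold in edgeR's test (0 of 10, adjusted p of the 8 genes from 0.212 to 0.270, against 0.0928% of all genes called), and 8 had an unadjusted p under 0.05, as 16.6% of all genes did. Without KO PBS replicate 136, which shares the model but not the comparison, these 8 genes passed, as did 3.79% of all genes in that direction, with log2 differences of 2.35 for Dct (edgeR adjusted p = 0.0139) and 4.0 for Oca2 (edgeR adjusted p = 0.0246). DESeq2 called 6 of the 10 higher, and 1.7% of all genes, again with no adjusted p for Mlana.

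Whether bleomycin acted differently in KO and WT mice was tested directly, as the KO response minus the WT response. It was 4.45 (SE 0.91) for Dct, 5.79 (SE 1.44) for Tyr and 7.40 (SE 2.10) for Oca2 on the log2 scale, and 1.19 (SE 0.49) for Mitf and 0.51 (SE 0.29) for Sox10. None passed the threshold in edgeR's test (0 of 10, adjusted p from 0.0702 to 0.241), nor did any gene of the table (0%), while 9 of the 10 and 31.1% of all genes had an unadjusted p under 0.05. Without KO PBS replicate 136, 9 of the 10 passed with the KO response higher, as did 20.4% of all genes. With all mice in, DESeq2 called 7 in the same direction, and 7.91% of all genes, with no adjusted p for Mlana.

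**Figure D2:**
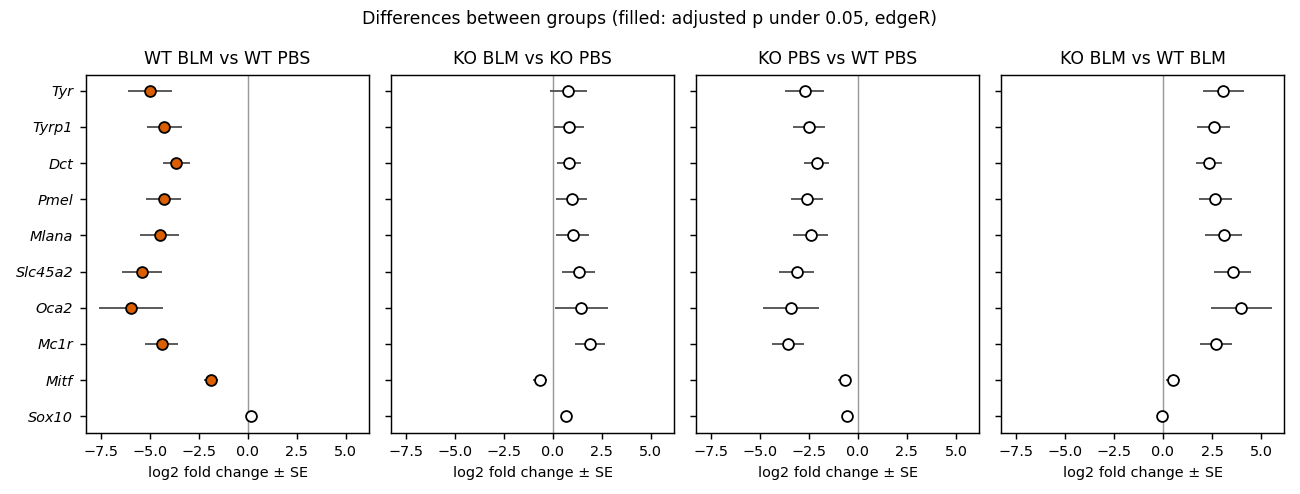
Log2 fold change and standard error (bars) of the 10 genes in 4 comparisons, with filled points for an edgeR adjusted p under 0.05. Only the comparison of the WT groups holds filled points, 9 of 10, and in the other panels the estimates of the 8 genes of the machinery and the receptor lie to the right of 0 in KO BLM against KO PBS, to the left in KO PBS against WT PBS and to the right in KO BLM against WT BLM.

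Taking each mouse by itself, the 8 genes of the machinery and the receptor were set against their WT PBS means. Their median was 41.6% in KO PBS replicate 136, and 3.03% and 3.16% in KO PBS replicates 137 and 139. In KO BLM mice it was 51.6% in replicate 141, 20.3% in replicate 143 and 22.1% in replicate 144, and in WT BLM mice it was 2.37%, 4.42% and 6.05%. Thus 2 of the 3 KO mice that had received PBS were in the range of the bleomycin-treated WT mice.

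Genes of the growing hair varied along with pigment. A list of 30 genes of the hair shaft, the inner root sheath and the hair matrix, 29 of them in the table and tested, had a mean of 9.07 to 9.71 log2 CPM in WT PBS mice. It was 9.55 for replicate 136 of KO PBS and 8.60 for replicate 141 of KO BLM. It was 4.59 and 5.69 in KO BLM replicates 143 and 144, 3.15 in WT BLM replicate 146, 2.20 in KO PBS replicate 139, and between -0.67 and -0.29 in the other 3 mice. In WT BLM mice 16 of the 29 genes were lower and 0 higher by edgeR's test, against 14.1% and 19.8% of all genes, with a median log2 fold change of -7.38. Since every WT PBS mouse had these genes high and every WT BLM mouse had them low, bleomycin and the phase of hair growth cannot be told apart in the WT comparison. Every KO BLM mouse had a higher mean (4.59 to 8.60) than any WT BLM mouse (-0.35 to 3.15). Genotype and the phase of hair growth therefore cannot be told apart between the bleomycin groups either. KO PBS replicates 137 and 139, at -0.67 and 2.20, lay below every WT PBS and every KO BLM mouse, so the fits without replicate 136 share this limit. The part of hair growth in the comparisons with all KO PBS mice was not tested.

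Pigment and hair did not scale alike across mice. KO PBS replicate 136 had 108% of the WT PBS mean for the median of 24 genes of the shaft and root sheath and 41.6% for pigment. KO BLM replicates 143 and 144 had 2.72% and 5.90% for the shaft and root sheath genes, against 20.3% and 22.1% for pigment. For 5 regulators and signals of the hair matrix (Shh, Lef1, Msx2, Foxn1 and Hoxc13) these 2 mice had medians of 15% and 17.9%, with Shh, a signal of the growing follicle, at 51.2% and 46.5%. In the mice with the lowest pigment, KO PBS replicates 137 and 139 and the WT BLM mice, the matrix genes had medians of 2.42% to 8.04%. No test was made of these values, which come from single mice.

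**Figure D3:**
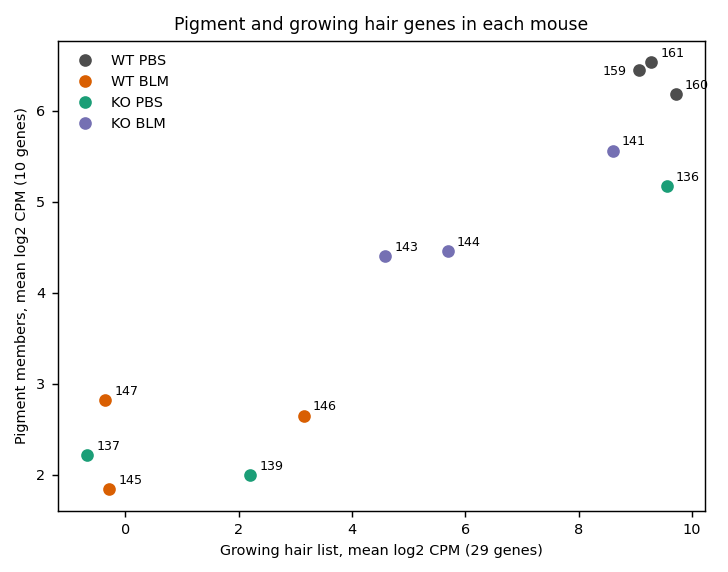
Mean log2 CPM of the 10 pigment genes against that of the 29 growing hair genes in each mouse, labelled by mouse number. The 3 WT PBS mice, KO PBS replicate 136 and KO BLM replicate 141 have hair means from 8.60 to 9.71, and KO BLM replicates 143 and 144 lie between these and the other 5 mice on both axes.

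The balance between some of the pigment genes also differed between mice. The ratio of Dct to Tyr CPM, which is not a ratio of molecules because the transcripts differ in length, was 4.61, 4.82 and 4.27 in WT PBS mice. It was 9.25, 9.57 and 15.9 in WT BLM mice, 5.67, 15 and 23.0 in KO PBS mice, and 5.27, 9.99 and 9.09 in KO BLM mice. Every mouse outside WT PBS had a higher ratio than the 3 WT PBS mice, and the ratio was highest in the mouse with the lowest Tyr, KO PBS replicate 139. The ratio of Tyrp1 to Tyr was 2.87 to 3.07 in WT PBS mice and 4.39 to 5.99 in WT BLM mice, and that of Oca2 to Tyr was 0.325 to 0.327 in WT PBS mice and 0.117 to 0.213 in WT BLM mice. In KO BLM replicate 141, Oca2 to Tyr was 0.378, above every WT PBS mouse. Pmel to Tyr was 3.47 to 4.05 in WT PBS and 4.56 to 8.73 in WT BLM mice. The ratios of Slc45a2, Mc1r and Mlana to Tyr and of Tyrp1 to Pmel overlapped between the WT groups. Tyr rests on as few as 60 counts and Oca2 on 0 to 5 in the lowest mice, which limits these ratios there.

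**Figure D4:**
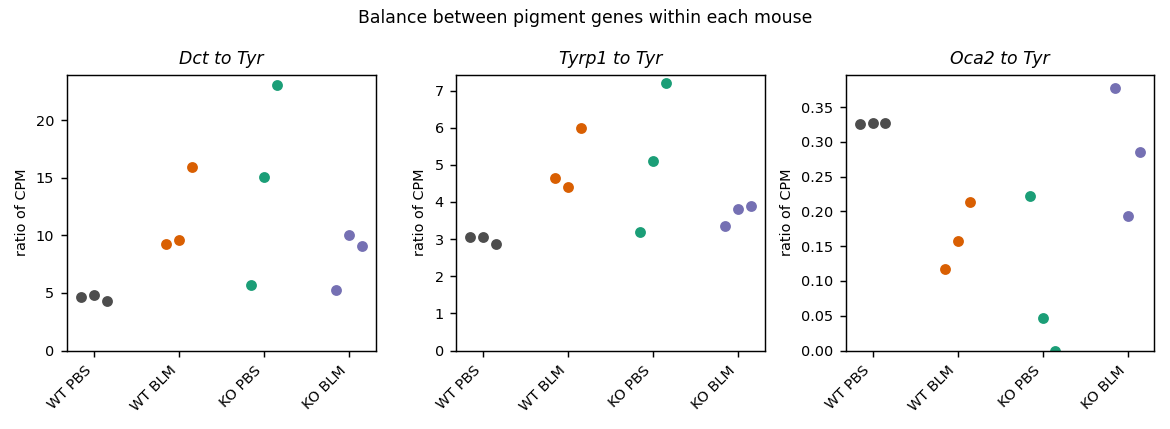
Ratios of Dct, Tyrp1 and Oca2 CPM to Tyr CPM within each mouse (points), by group, on linear axes from 0. Dct to Tyr is 4.27 to 4.82 in the WT PBS mice and 9.25 to 15.9 in the WT BLM mice, and Oca2 to Tyr is 0 in KO PBS replicate 139, which had no Oca2 count.

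A wider list of 63 pigment genes outside the 10 gave 61 that could be tested. In WT BLM mice 10 of the 61 were higher and 20 lower by edgeR's test, where 19.8% and 14.1% of all genes were, and the median log2 fold change was -0.23. In none of the other comparisons did a gene of this list pass (0 of 61 in each). Without KO PBS replicate 136 the number was 12 in the KO mice (14% of all genes), 24 between the PBS groups (36.7% of all genes) and 10 between the bleomycin groups (6.89% of all genes).

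Among 16 proteins of the melanosome and its transport, 6 were lower and 3 higher in WT BLM mice, where 14.1% and 19.8% of all genes were. Trpm1, a cation channel of melanocytes, was at 267, 223 and 271 CPM in WT PBS and 3.76, 8.54 and 7.05 CPM in WT BLM mice, and fell by 5.29 on the log2 scale (SE 1.45, edgeR adjusted p = 0.0222). Gpr143, the receptor on the melanosome that is lost in ocular albinism, fell by 5.08 (edgeR adjusted p = 0.0161), and Slc24a5, the ion exchanger of the melanosome, by 4.55 (edgeR adjusted p = 0.0176). Syt4, Mcoln3 and Mlph were the other 3 that fell. Those that rose, Mfsd12 (log2 fold change 1.32), Cd63 (1.09) and Rab32 (0.49), serve lysosomes and related organelles in many cells. Myo5a and Rab27a, which with Mlph carry melanosomes along actin, did not pass, with log2 fold changes of -0.75 and -0.37. When single mice were left out, Trpm1 lost its call without WT PBS replicate 159 or any WT BLM mouse (edgeR adjusted p up to 0.0673), Gpr143 without WT BLM replicate 145 or 147 (up to 0.0504) and Slc24a5 without any WT BLM mouse (up to 0.0558).

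Genes that build the organelle moved little. The list held 18 subunits of the BLOC, HOPS and AP complexes and related genes, which are not limited to pigment cells. Of these, 1 was lower (Lyst, log2 fold change -0.47, edgeR adjusted p = 0.0424) and 2 were higher (Snapin, 0.48, edgeR adjusted p = 0.0179, and Hps6, 0.42, edgeR adjusted p = 0.0421). Among all genes 14.1% were lower and 19.8% higher. All 18 lay between -0.47 and 0.48 on the log2 scale. None of the 3 calls held in all 12 fits that left out 1 mouse. Snapin lost its call in 4, Lyst in 6 and Hps6 in 6 of them, mostly without a WT mouse (edgeR adjusted p up to 0.0865, 0.122 and 0.186).

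Signals to the melanocyte come from the hair follicle and the surrounding skin. Of 13 such genes 11 could be tested, and 5 were lower and 1 higher in WT BLM mice, where 14.1% and 19.8% of all genes were. Corin, a protease of the dermal papilla that modifies agouti signalling, fell by 5.39 on the log2 scale (SE 0.98, edgeR adjusted p = 0.0062). Edn3, the endothelin that melanoblasts need, was at 14, 8.75 and 17.6 CPM in WT PBS and 0.861, 3.39 and 0.984 CPM in WT BLM mice and fell by 2.94 (edgeR adjusted p = 0.00863), and Hgf rose by 2.19 (edgeR adjusted p = 0.0174) at 0.271 to 4.79 CPM over all mice, a call lost without WT PBS replicate 159 or 160 or WT BLM replicate 146 (edgeR adjusted p up to 0.0604). Kitl, the ligand of Kit, did not pass at -1.15 (edgeR adjusted p = 0.0594). The agouti gene, listed under the symbol a, had 5 to 28 counts per mouse and a log2 fold change of 0.44 (edgeR adjusted p = 0.561), and Pomc, the precursor of the hormones that bind Mc1r, had 1 to 8 counts and was not tested.

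Of 16 regulators and receptors of the lineage, 8 were lower and 4 higher in WT BLM mice, where 14.1% and 19.8% of all genes were. Lef1, which acts in Wnt signalling in the melanocyte and in the hair matrix, fell by 4.63 on the log2 scale (edgeR adjusted p = 0.0108). Ednrb, the receptor of Edn3, was at 74.1, 96.1 and 130 CPM in WT PBS, 4.50, 12.3 and 8.20 CPM in WT BLM, 68.7, 41.1 and 38.2 CPM in KO PBS and 49.1, 11.6 and 10.1 CPM in KO BLM mice, and fell by 3.58 (edgeR adjusted p = 0.00594). Thus Ednrb was higher in KO PBS replicates 137 and 139 than in KO BLM replicates 143 and 144, the reverse of the order of Tyr.

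Kit, the receptor of melanoblasts and mast cells, fell by 1.71 on the log2 scale (edgeR adjusted p = 0.0236), and Pax3 by 1.61 (edgeR adjusted p = 0.00764). Tfec, a relative of Mitf that macrophages also express, rose by 2.06 (edgeR adjusted p = 0.0147), and Foxd3, Zeb2 and Tfeb were the others that rose. Kit lost its call without any WT mouse other than WT BLM replicate 146 (edgeR adjusted p up to 0.0695), and Tfec without WT PBS replicate 159 or 160 (up to 0.0597). Macrophage markers were higher in WT BLM skin, 10 of 12 by edgeR's test against 19.8% of all genes, with a summed level of 508 to 1099 CPM in WT PBS and 2948 to 4207 CPM in WT BLM mice. Mast cell markers were higher for 5 of 12 and lower for Kit alone, against 19.8% and 14.1% of all genes, with a summed level of 137 to 154 CPM in WT PBS and 98.6 to 281 CPM in WT BLM mice. The part of these cells in the values of Tfec and Kit was not tested.

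**Figure D5:**
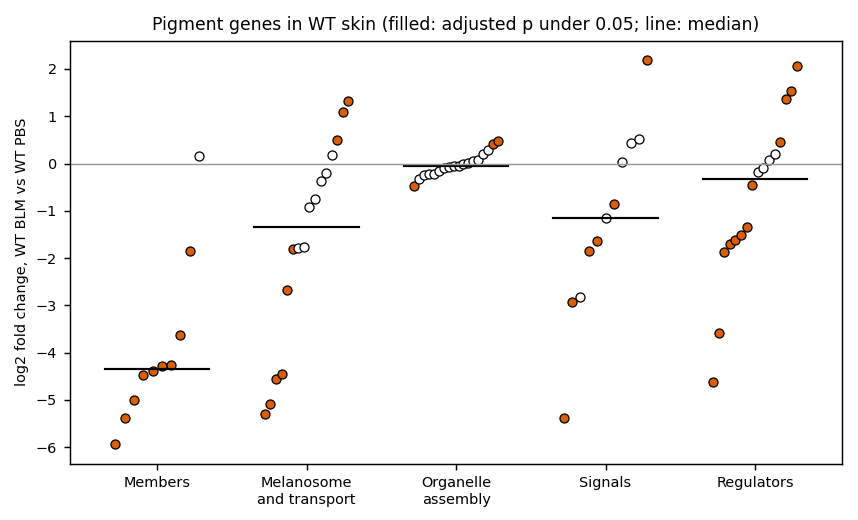
Log2 fold change between WT BLM and WT PBS for the 10 genes and the 61 tested genes of the wider list, by role, with filled points for an edgeR adjusted p under 0.05 and a line at the median. The 18 organelle assembly genes stay within -0.47 and 0.48, while the melanosome genes reach -5.29 and the signals -5.39.

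The genes whose pattern over the 12 mice was most like that of each member were sought among 15524 genes, as the smallest root mean square difference between centred log2 CPM values. Tyrp1 and Pmel were nearest to each other, with a difference of 0.19 on the log2 scale. Tyr was nearest to Gpr143 (0.36) and Slc24a5 (0.36), Dct to Tspan10 (0.22) and Ptgds (0.29), Mlana to Syt4 (0.30), Slc45a2 to Tyr (0.41), Mc1r to Pmel (0.34) and Oca2 to Trpm1 (0.59). Mitf was nearest to Tenm2 (0.18) and Fads6 (0.18), and Sox10 was nearest to Rom1 (0.15), Tmem223 (0.19) and Mcat (0.20), which like Sox10 varied little over the mice.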

How the data were processed

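Whole-skin RNA of 12 mice, 3 in each of 4 groups, was analysed from 1 table. Per the paper's methods, the authors prepared stranded mRNA libraries, sequenced read pairs and tested with DESeq2. The deposited values are raw read counts per gene, with a symbol per row and a mouse number per column, and 0 columns were left unused. Submitters' processing notes name MultiQC 1.7 and GRCm38.p6. The aligner, the counting tool and the use of strand are not given in the sources used here.

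After TMM normalization, a fit was made in edgeR 4.0.16 (R 4.3.3) with a quasi-likelihood model of 4 group means, on the genes that filterByExpr kept, 18311 of the 34689 genes with a count. The biological coefficient of variation was 34.9%. Log2 CPM values have a prior count of 2. On simulated data of the WT comparison, 154 of 200 genes changed 4-fold were recovered (77%), with 8 false calls in 17998 genes, and 0 genes were called in a KO contrast without change. Every simulated gene had the same spread, the 34.9% above, so the 77% does not hold for genes with a wider spread. Over the KO PBS mice the coefficient of variation of CPM was 106% for Dct, 148% for Tyr and 170% for Oca2, and 41.2% for Mitf and 6.88% for Sox10.

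The 10 genes, the lists and the comparisons were chosen with earlier results of these data known. From the wider list, up to 3 called genes of each role with the largest changes, and a fixed set of lineage genes (Kit, Ednrb, Kitl, the agouti gene, Pomc, Edn3, Pax3, Gpr143, Slc24a5, Trpm1), are named with values. Other genes were named after their values were seen. Positions are from GENCODE M21, promoter windows from RefSeq. Alternatives were DESeq2 1.42.0, RLE and upper-quartile factors, no filter, a mean of at least 1 CPM, only the groups compared, each mouse left out in turn, and KO PBS replicate 136 and KO BLM replicate 141 left out together. Plots used Python 3.11.15 with matplotlib 3.10.9.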

Additional observations from a re-analysis of the deposited data

How the results depend on the processing

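In WT mice, 8 or 9 of the 10 genes were lower under every alternative tried, and 18 to 34 of the 61 genes of the wider list were called when a mouse was left out, against 30 with all mice (18 without WT PBS replicate 159 or 160, 19 without WT BLM replicate 147). The calls over all genes moved as well, from 6222 of 18311 with all mice to 2626 of 18725 and 2615 of 18746 without these WT PBS replicates. They were 3299 of 18726 without WT BLM replicate 147, and 8565 of 18739 without KO PBS replicate 136, the fit with 34. Oca2 passed in 13 of 19 alternatives, and DESeq2 gave no adjusted p for Mlana in any comparison. Among the KO comparisons, leaving out a mouse gave 0 to 8 of the 10 genes and 0 to 12 of the wider list for KO BLM against KO PBS, 0 to 9 and 0 to 24 for KO PBS against WT PBS, 0 to 8 and 0 to 10 for KO BLM against WT BLM, and 0 to 9 and 0 to 29 for the difference of responses. The upper values belong to the fit lacking KO PBS replicate 136, where 2632, 6870, 1292 and 7470 of 18739 genes were called in the same order. In the fit lacking KO BLM replicate 141, 5 of the wider list and 1162 of 18783 genes were called in KO mice. Leaving out any other single mouse gave no call from either list in these 4 comparisons. Without both replicates, the calls were 9 and 21 in KO mice, 9 and 31 between the PBS groups, 8 and 8 between the bleomycin groups, and 9 and 30 for the difference. Of all 18688 genes in that fit, 4164, 7648, 815 and 7218 were called in the same order. DESeq2 called 0 and 2, 6 and 4, 6 and 6, and 7 and 14 in the same order. Over all genes it called 1212 of 19732, 755 of 19732, 614 of 18388 and 3279 of 17716. The fit with no filter gave 1 and 1 for the difference, and 20 of 34689 genes. The causes of these shifts were not tested. The sign of the Sox10 log2 fold change, which did not pass, turned when a mouse was left out, within -0.023 to 0.35 in WT mice and -0.17 to 0.13 between the bleomycin groups: in WT mice without WT PBS replicate 160 (-0.023) or WT BLM replicate 146 (-0.012), and in the other comparison without WT BLM replicate 146 (0.13), KO BLM replicate 141 (0.12) or both KO replicates (0.086). The paper's methods describe the control mice as littermates, but the labels do not name litters, so no paired analysis was possible. Depth limited Oca2, Slc45a2 and Mc1r most, whose lowest counts in a mouse were 0, 8 and 15.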
